A study of Mus musculus with 462 samples.

Results

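The linc-named transcripts of a hybrid-selection panel were described across clones of mouse embryonic stem cells, first in unmodified Control clones and then in clones modified at other or the same loci. They were taken by name: every autosomal row whose name holds linc followed by digits, without exon rows, and without linc1319, linc1329, linc1405, linc1423, linc1509, linc1536, linc1547 and linc2025. The rule left 33 of 1583 distinct row names. The count files follow 2 row lists of 692 and 903 transcripts, called A and B below, which share 12 names. List A held 19 of the linc rows and list B the other 14, and the rows they are set beside, those not named linc, Rik or Gm, numbered 567 in list A and 704 in list B once rows with identical counts were merged.

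The series measured poly(A)+ RNA after hybrid selection, an enrichment of libraries with probes for chosen transcripts. All clones were derived from an F1 129/Castaneus line whose parental chromosomes differ at enough bases for reads to be assigned to an allele, and all were kept in serum-free 2i/LIF culture, which holds stem cells in naive pluripotency. The libraries analysed were 219 of modified and 220 of Control clones, and they held 62104 to 2981776 allele-assigned counts on the rows used, with a median of 830611. Promoter deletions were made at Crlf3, Dicer1, Gpr19, linc1319, linc1386, linc1399, linc1405, linc1423, linc1509, linc1536, linc1547, linc2025, Meg3, Rcc1, Sfmbt2, Slc30a9, Snhg17 and Snhg3. Insertions labelled pAS were made at Gpr19, Slc30a9, linc1329, linc1405, linc1536 and linc2025 and at 5 positions of linc1319, of which the 15kb group had 1 clone and was not tested. The remaining groups were a promoter insertion, a 5ss deletion, an exon 2 KO and deletions of exons 3 and 4 and of introns 1, 2 and 3, all at linc1319. Controls carried none of these changes. Each library is a clone, nothing in the labels tells on which allele the change lies, and the sex given for the line differs between the labels and the growth protocol. Nothing used here states that clones were cultured separately, so p-values measure the spread between these libraries, which may be technical.

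Large intergenic noncoding RNAs are spliced, polyadenylated transcripts of loci between protein-coding genes. Many were first catalogued in embryonic stem cells from chromatin marks of active promoters and transcribed bodies. A few have well-described roles. Meg3, the linc1746 row, is the maternally expressed RNA of the imprinted Dlk1-Dio3 domain. Pvt1, the linc1476 row, lies beside the growth regulator Myc. The linc1399 row, also named lincIrx5, has the counts of the row that RefSeq calls Crnde, a noncoding RNA named for its differential expression in human colorectal tumours. For most of the other members the tables used here gave no name or role beyond the row name.

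The noncoding label was checked against overlapping rows. linc1545 (chromosome 6, 35202700 to 35211639, mm9, as are all coordinates of rows below) covers the same interval as 1810058I24Rik, whose counts came to 101% of its own over all libraries. RefSeq lists 1810058I24Rik as protein coding, so the counts of linc1545 cannot be told apart from those of a coding transcript. linc1588 (chromosome 9, 58302900 to 58318239) had, at the overlapping 4930461G14Rik, 96.98% of its own counts, and linc1450 (chromosome 11, 97459764 to 97487393) had 68.2% at 2410003L11Rik, both listed as lncRNA. linc1500 and linc1500ASOverlap, on chromosome 18, lie over each other and the counts of linc1500ASOverlap came to 95.9% of those of linc1500, so they are not separate measurements, although both enter the counts of linc rows below unless stated. Both overlap Gm20748, the cardiac noncoding RNA Bvht. Whether counts were strand-specific is not given, and reads of overlapping transcripts cannot be separated.

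The naive stem cell markers among the captured rows were all high in the 134 Control clones of list B. Nanog had a median of 22659 CPM (the count over the library's allele-assigned total, times 1000000), Dppa3 7016 CPM and Tcl1 5844 CPM. Of the markers of other cell types looked for, the mesendoderm gene Eomes had a median of 278 CPM and the neural gene Nes 1274 CPM. The other 8 of 11 naive markers and the primitive endoderm, primed, 2-cell-like and fibroblast markers were not among the rows, and list A held no marker row.

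Of the members whose own promoter was modified, Meg3 and linc1399, listed there as Crnde, matched a RefSeq promoter. These reference sequences are shown because clones labelled as deletions of these promoters are described below; the sources used here do not give the deleted intervals. They run from 250 bases before to 50 after the annotated start, in build GRCm38.p6, 5′ to 3′ on the strand of the gene. The first of 2 starts listed for Meg3 gives chr12:109540746-109541045 on the + strand, and Crnde lies at chr8:92356071-92356370 on the - strand. Capitals mark the TATA motif spelled TATAAA, the CAAT motif spelled CCAAT and the GC motif spelled GGGCGG, on either strand.
Meg3: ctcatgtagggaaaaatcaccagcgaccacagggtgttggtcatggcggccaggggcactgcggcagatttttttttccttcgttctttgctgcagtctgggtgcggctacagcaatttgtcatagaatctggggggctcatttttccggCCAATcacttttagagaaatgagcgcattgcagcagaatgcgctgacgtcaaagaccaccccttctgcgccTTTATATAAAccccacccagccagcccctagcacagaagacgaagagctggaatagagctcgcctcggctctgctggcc
Crnde: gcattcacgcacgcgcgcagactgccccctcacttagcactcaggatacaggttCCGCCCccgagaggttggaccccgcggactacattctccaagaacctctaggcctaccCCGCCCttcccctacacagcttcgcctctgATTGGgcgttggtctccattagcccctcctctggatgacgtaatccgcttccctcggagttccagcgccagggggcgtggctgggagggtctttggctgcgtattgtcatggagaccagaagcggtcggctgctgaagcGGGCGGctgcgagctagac
The Meg3 window held TATAAA on both strands in 2 overlapping matches, 1 CCAAT and no GGGCGG. The Crnde window held no TATAAA, 1 CCAAT and 3 GGGCGG. Of 32851 RefSeq promoter windows of the same length, 13.6% held TATAAA on either strand, 37.4% held CCAAT and 35.7% held GGGCGG. CG dinucleotides numbered 13 in the Meg3 window and 22 in the Crnde window, against a median of 7 over all windows. A match says only that these letters stand in the window.

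Levels in Control clones differed between the lists. In list A the linc rows had a median of 54.3 CPM over the row means, against 220 CPM for the rows not named linc, Rik or Gm, in the same 86 Control clones. Per kilobase of the row's genomic span, which is not its spliced length, the medians were 6.71 CPM in the linc rows and 12.1 CPM in the other rows. In list B, with 134 Control clones, the medians were 591 CPM in the linc rows and 71.5 CPM in the other rows, or 32.7 and 4.79 CPM per kilobase of span. The linc rows were a small part of each library: the 19 of list A held 0.278% of the counts of the median clone there. The 14 of list B held 1.78% in theirs. These are medians of the lists and were given no test. The counts are of reads that probes enriched and that could be assigned to an allele. CPM of different rows therefore need not rank their RNA abundance, and how far rows differ in either respect was not tested. In bulk RNA, fewer cells that hold a transcript and less of it per cell cannot be told apart.

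In list A, Pvt1 had the highest mean in CPM, at 843 ± 156 (SD, n = 86), with clones from 360 to 1314 and a median of 840. linc1654 (chromosome 1, 138495417 to 138521386) followed at 766 ± 298, and its clones spanned 22.96 to 1668 CPM. linc1293 (chromosome 15, 83184073 to 83197749) averaged 223 ± 108 CPM and linc1267 168 ± 57.7 CPM, with overlapping clones. The order changes per kilobase of span, where linc1267, a row of 2.03 kb, was highest at 83.0 CPM, linc1654 had 29.5 CPM, linc1246 22.5 CPM, and Pvt1, a row of 213 kb, 3.96 CPM. linc1260, linc1259, linc1422 and linc1246 had means of 155, 142, 142 and 128 CPM, and their SDs of 42.3, 45.2, 55.2 and 70.1 CPM exceeded the gaps between them. linc1327, linc1477, linc1369, linc1421 and linc1460 had medians of 70.8, 50.3, 48.2, 33.8 and 20.2 CPM. linc1542, linc1786, linc1482 and linc1356 had medians of 10.4, 7.70, 5.91 and 3.14 CPM.

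In list B, linc1545 averaged 5645 ± 879 CPM (SD, n = 134) with clones from 3344 to 8527, and linc1296 (chromosome 15, 96990092 to 96997686) averaged 4860 ± 1473 CPM with clones from 1818 to 7589. Per kilobase of span the order was linc1296 at 640 CPM, linc1545 at 631 CPM and linc1611, a row of 1.33 kb, at 422 CPM. linc1386 had 145 CPM, linc1510 54.01 CPM, Meg3 51.2 CPM and linc1449 34.1 CPM per kilobase. These means pool Control clones of 5 dates, and the order depends on the mix. linc1545 was above linc1296 in every date but 141107, where it had 626 CPM per kilobase and linc1296 had 807 CPM. linc1386 had 300.4 CPM per kilobase in 141107 and 1.04 to 10.3 CPM in the others, and Meg3 had 0.378 CPM in 141107 and 56.4 to 180 CPM in the others. linc1450 was the steadiest of the middle rows, at 866 ± 123 CPM. linc1510, linc1449, linc1611 and linc1588 averaged 712, 618, 563 and 428 CPM, and linc1399, linc1500 and linc1500ASOverlap 133, 127 and 122 CPM.

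**Figure D1:**
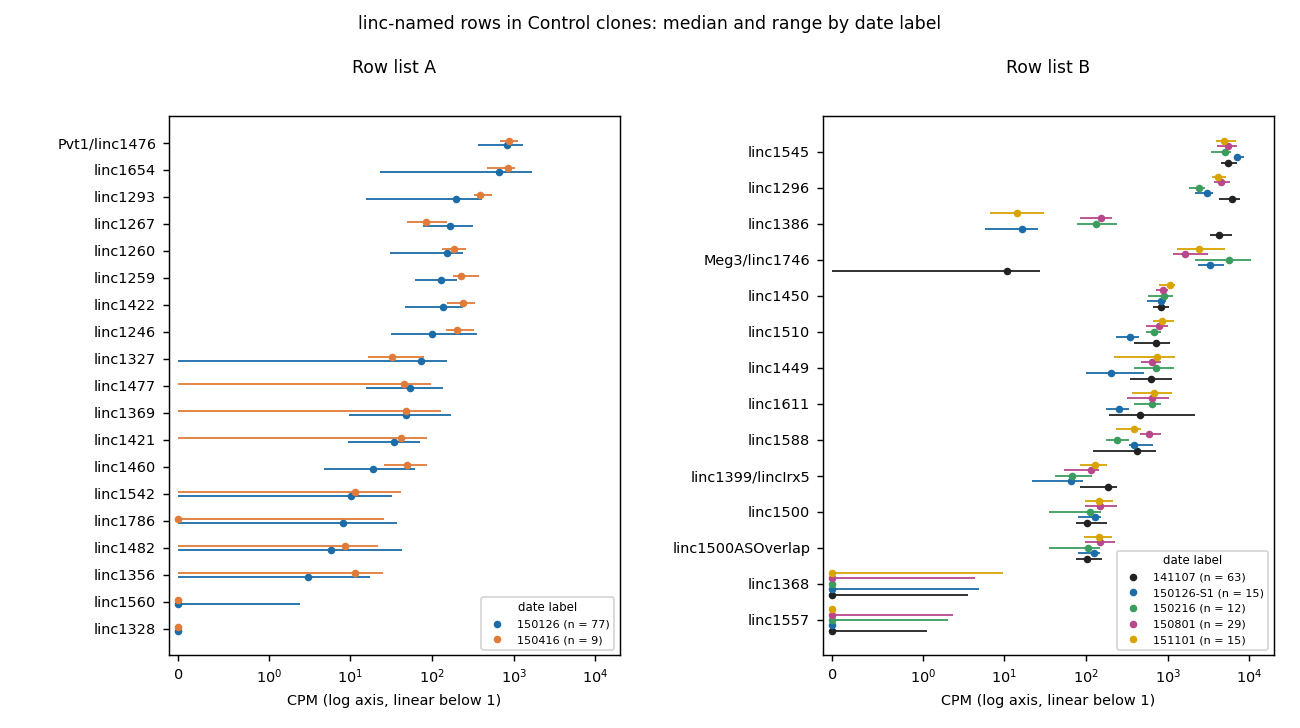
CPM of the 33 linc rows in Control clones by date label, for row lists A (left) and B (right); points are medians, lines run from the lowest to the highest clone, and the axis is logarithmic above 1 CPM. The points of linc1386 and Meg3 lie far apart between dates, while those of linc1545 and linc1450 nearly coincide.

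At the low end, some rows were barely seen. linc1328 (chromosome 2, 157421163 to 157423068) had 0 counts in all 86 Control clones. By the upper exact Clopper-Pearson limit this allows a share of clones with counts of up to 4.20%. A total of 3 counts, taken as the limit of its level, would be 0.0403 CPM over the group. linc1560 had counts in 7 of 86 clones, 8.14% (exact Clopper-Pearson interval 3.34% to 16.1%), and 11 counts in all. linc1557 had counts in 9 of 134 clones, 6.72% (3.12% to 12.4%), also with 11 counts in all, and linc1368 in 46 of 134, 34.3% (26.3% to 43.02%). linc1356, linc1482, linc1786 and linc1542 had counts in 75.6%, 83.7%, 87.2% and 94.2% of the 86 clones of list A. Counts in every Control clone were found for 9 of 19 linc rows, 47.4%, and for 60.5% of the other rows of list A, and for 11 of 14 linc rows, 78.6%, and for 50.99% of the other rows of list B. Rows with counts in fewer than 50% of clones were 2 of 19 linc rows against 17.8% of other rows in list A, and 2 of 14 against 20.6% in list B. The intervals and limits cover counting error only.

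2 members had Control levels that depended on the date label of the library by over 10 times. linc1386 (chromosome 7, 82912598 to 82926969) had a median of 4211 CPM in the 63 Control clones of 141107, with a range of 3282 to 6065 CPM. Its medians were 16.2 CPM in 150126-S1, 131 CPM in 150216, 152 CPM in 150801 and 14.2 CPM in 151101, so the highest and lowest dates differed by 296 times. Meg3 (chromosome 12, 110779208 to 110809938) went the other way: its median was 10.7 CPM in 141107, with clones from 0 to 27.3 CPM, and 3270, 5643, 1608 and 2406 CPM in the other dates in the same order. The highest and lowest of these differed by 528 times. Among the captured rows within 1 Mb, Akap13 and Klhl25, on either side of linc1386, had date medians of 1210 to 1655 CPM and 730 to 1217 CPM, and Rian and Mirg, noncoding RNAs of the same imprinted domain as Meg3, had 3092 to 7827 CPM and 1596 to 2847 CPM. A row near each differed by over 10 times as well, at low levels. Rtl1, which follows Meg3, had date medians of 15.7 to 253 CPM, and it was highest in 150126-S1. Agbl1, near linc1386, had 0.903 to 14.1 CPM and was highest in 150216. These were 1 of the 14 rows near Meg3 and 1 of the 4 near linc1386 with a median above 0 at every date.

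**Figure D2:**
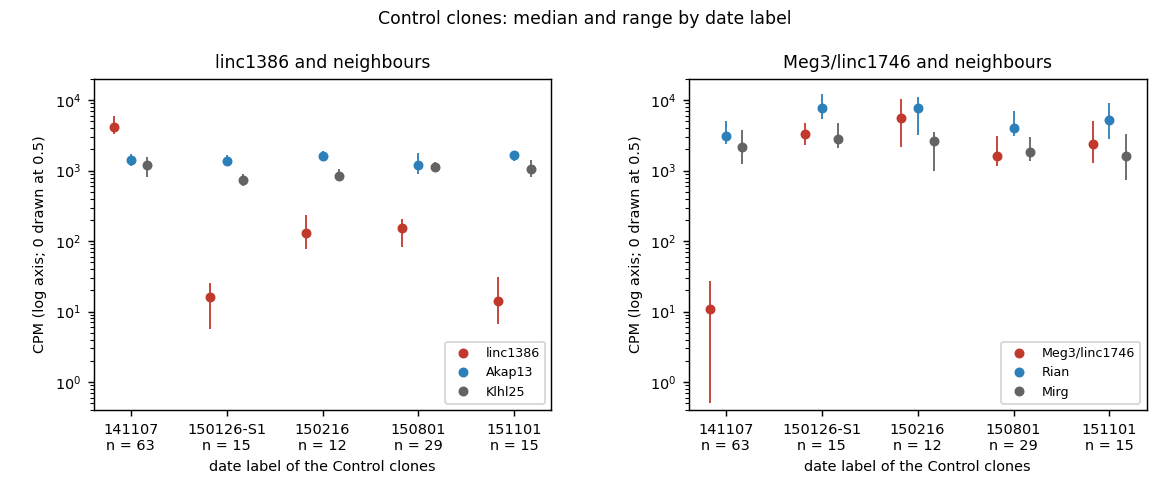
CPM on a log axis by date label of the Control clones for linc1386 with its neighbours Akap13 and Klhl25 (left) and for Meg3 with its neighbours Rian and Mirg (right); points are medians and lines the range over clones. linc1386 has 4211 CPM in 141107 and 14.2 CPM in 151101, Meg3 has 10.7 CPM in 141107 and 5643 CPM in 150216, and none of the 4 neighbours drawn differs by as much.

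Modified clones of the same dates showed the same levels where these rows were not the ones modified. Meg3 had a median of 12.6 CPM in 29 modified clones of 141107, and linc1386 had 4601 CPM in 25 of them. In the 15 modified clones of list B with the latest date label, which has no Control clones, Meg3 had 2896 CPM and linc1386 166 CPM. Shifts of this size were not limited to linc rows: in list B, date medians differed by over 10 times in 2 of 12 linc rows with a mean count of at least 10 and a median above 0 at every date, 16.7%, and in 57 of 460 other rows, 12.4%. The median row differed by 2.51 times among linc rows and by 1.93 times among other rows. In list A, with Control clones of 2 dates, the largest linc difference was 2.62 times, at linc1460, which had 49.9 CPM in 150416 and 19.04 CPM in 150126. A test of date among Control clones in edgeR's quasi-likelihood model called 7 of 13 linc rows in list A, beside 64.1% of all rows tested, and 12 of 12 in list B, beside 98.3% of all rows. In list A the linc rows without a call for date were Pvt1, linc1260, linc1369, linc1421, linc1477 and linc1654, with adjusted p from 0.0932 to 0.834.

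The spread between Control clones of a date was measured as the biological coefficient of variation, the relative spread of a row that edgeR attributes to clones beyond counting. In the 77 Control clones of 150126 its median was 0.358 over 14 linc rows and 0.249 over 408 other rows. linc1246, linc1293, linc1421 and linc1654 had the largest values of the linc rows, at 0.495, 0.432, 0.405 and 0.401, and linc1259, Pvt1, linc1260 and linc1267 the smallest, at 0.160, 0.167, 0.229 and 0.271. This measure falls with the count, and the linc rows of list A had lower counts: between mean counts of 10 and 100 the medians were 0.386 in 7 linc rows and 0.430 in 95 other rows, and between 100 and 1000 they were 0.271 in 7 and 0.262 in 131. In the 63 Control clones of 141107 the median was 0.213 over 12 linc rows and 0.231 over 469 other rows. There linc1545, linc1296, linc1450 and linc1386 were steadiest, at 0.113, 0.119, 0.119 and 0.141. linc1611, Meg3, linc1588 and linc1449 varied most, at 0.433, 0.395, 0.391 and 0.246, with Meg3 resting on few counts.

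Part of that spread followed the number from P1 to P25 in the titles of Control clones, whose meaning the labels do not give. A test of this P number called 13 of 14 linc rows among the Control clones of 150126, with 25 P numbers of 3 to 5 clones, beside 91.9% of all rows tested. Among those of 141107, with 20 P numbers of 2 to 5 clones, it called 11 of 12, beside 80.2% of all rows. The exceptions were linc1369, with an adjusted p of 0.212, and Meg3, with an adjusted p of 0.413. Medians by P number ran from 33.8 to 250 CPM at linc1246, those of linc1421 from 9.92 to 66.1 CPM and those of linc1654 from 474 to 1420 CPM. In 141107 those of linc1545 were tighter, at 5046 to 6547 CPM. The modified clones of these dates have no P number, so what it stands for and the modification cannot be told apart in the total-count comparisons below.

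Allele ratios of the linc rows in Control clones were set beside those of the other rows. The ratio is the log2 of the first over the second allele column, with 0.5 added to each, in clones with at least 20 allele counts. Its absolute median was 1.05 over 15 linc rows and 0.317 over 418 other rows in list A, and 0.893 over 12 linc rows and 0.317 over 513 other rows in list B. A row median beyond 1, a 2 to 1 ratio, was found in 8 of the 15 linc rows of list A, 53.3%, against 18.4% of other rows, and in 6 of the 12 of list B, 50%, against 22.2% of other rows. With the linc1500 locus counted once, a choice made after the data were seen, the absolute median of list B was 0.460 over 11 linc rows, and 5 of them, 45.5%, lay beyond 1. These are descriptions of the lists, with no test, and the rows were not matched for counts. In list A the median SD of the ratio between clones was 0.662 in linc rows and 0.329 in other rows. In list B these medians were 0.488 and 0.418. The SD includes counting error. Set against counting error as a chi-square per degree of freedom, the median spread in list A was 2.44 in linc rows and 2.91 in other rows. In list B it was 4.90 and 3.22. The left-out linc rows had an absolute median of 0.371 over 5 rows in list A and 1.32 over 3 rows in list B. Rows named Rik or Gm had 0.340 over 30 rows and 0.556 over 41 rows. The strain of each column is not given, so the direction is given by column. Differences in how reads of each strain map were not tested.

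The most uneven members leaned to the first column in every clone. linc1588 had a median of 4.39 with clones from 1.66 to 7.98, and 95.1% of its counts stood in the first column. linc1611 (chromosome 16, 94011111 to 94012445) had a median of 3.63 and 92.4% of its counts there, and linc1450 a median of 2.30 and 83.0%. In list A, linc1267 had a median of 2.65 over 81 clones, and linc1542 of 4.33 over the 10 clones that reached 20 counts. None of the Control clones measured leaned the other way at these 5 rows, nor at linc1422, linc1500 and linc1500ASOverlap, with medians of 1.35, 1.33 and 1.40. linc1588 kept its lean at every date, with medians of 3.69 to 5.57, and linc1611 with medians of 3.51 to 4.07.

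Meg3 leaned to the second column. Its median was -2.27 over 97 clones and 15.2% of its counts stood in the first column. The lean differed by date: the medians were -2.26, -1.97, -3.06 and -2.89 in 150126-S1, 150216, 150801 and 151101, where all clones leaned to the second column, and -0.36 in 141107, where 26 clones reached 20 counts, 9 of them leaned to the first column, and the level was 10.7 CPM. linc1477, linc1421, linc1460 and Pvt1 also leaned to the second column, with medians of -1.07, -1.06, -0.85 and -0.74. linc1654, linc1510, linc1449 and linc1545 had medians near balance, at -0.04, -0.11, -0.15 and 0.17, although that of linc1449 was 0.30 in 150126-S1 and -0.35 in 150216. linc1399 had a pooled median of -0.02 from dates that leaned opposite ways, with 0.19 in the 63 clones of 141107 and -0.47, -0.21, -0.55 and -0.43 in 150126-S1, 150216, 150801 and 151101.

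**Figure D3:**
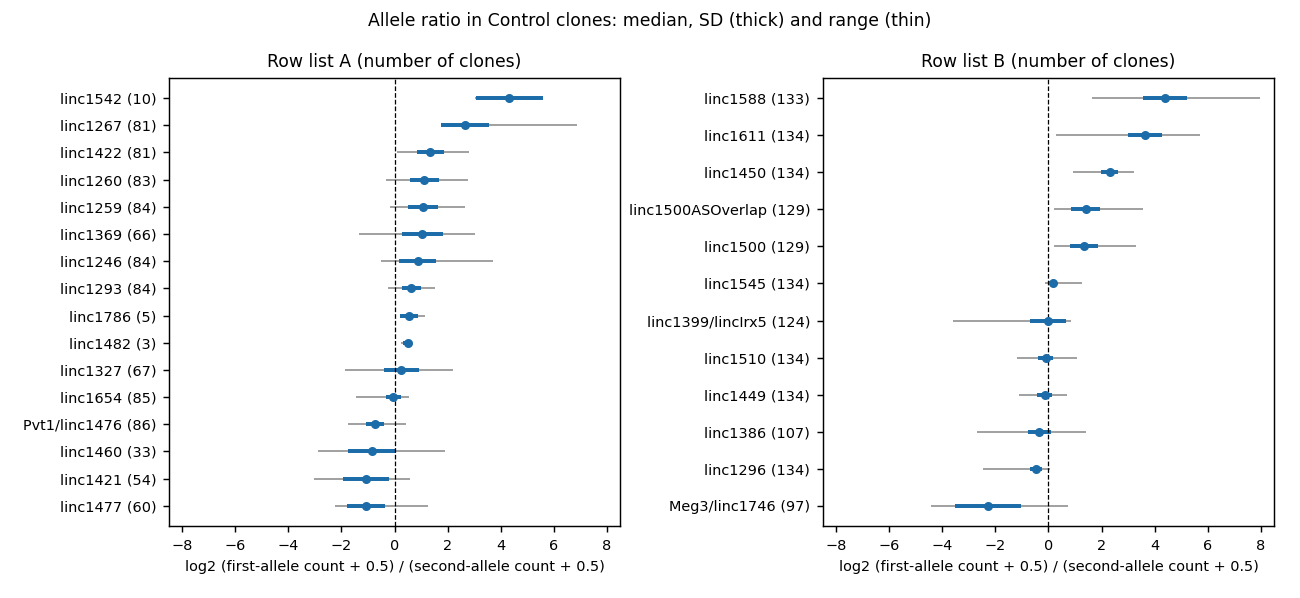
Log2 ratio of the first to the second allele column in Control clones for each linc row with at least 3 measurable clones (number in brackets); points are medians, thick bars the SD between clones and thin lines the range. linc1588, linc1611, linc1267 and linc1450 lie wholly to the right of balance and most clones of Meg3 to the left.

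The tightest ratios belonged to the abundant rows. Within 141107 the SD between Control clones was 0.06 at linc1545, 0.09 at linc1296 and 0.11 at linc1386. Against that, 3 Control clones stood apart. In a clone of 151101 linc1545 had 6484 and 2676 counts, a ratio of 1.28, where the date's median was 0.05. In a clone of 150126-S1 linc1296 had 244 and 1349 counts, a ratio of -2.46 against a median of -0.44. In a clone of 141107 linc1611 had 113 and 93 counts, a ratio of 0.28 against a median of 3.64. These clones were chosen after their values were seen.

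A property of the files bears on the precision of all these values. Many rows held mostly even counts: of the counts above 0, 95.9% were even at linc1421, 95.03% at linc1460, 97.9% at linc1542 and 98.4% at linc1482, but 49.6% at linc1296, 52.3% at Meg3 and 45.2% at linc1654. The median was 86.9% over 17 linc rows and 59.1% over 486 other rows in list A, and 65.02% over 13 linc rows and 65.1% over 600 other rows in list B. Counts that come in pairs are not independent, so counting error computed from them as if they were is too small. How the counts were made is not given in the sources used here.

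The 3 members that were themselves modified were read first. In the 4 clones of the linc1386 promoter deletion, linc1386 had 1727, 2133, 1650 and 1467 CPM, against 3282, 4211 and 6065 CPM as the lowest, median and highest of 63 Control clones. All modified clones lay below all Controls. The log2 fold change was -1.28 (SE 0.12, adjusted p = 5.2e-14 by edgeR's quasi-likelihood test), beside 6.49% of all other rows called, and the call was lost with Control clones of any date as the reference, at an adjusted p of 0.933. The allele counts of these clones were 2531 and 334, 34 and 871, 130 and 2334, and 933 and 140, so that 2 clones kept mostly the first column and 2 mostly the second. Their mean deviation from the pooled median ratio was 3.62 ± 0.54 (n = 4), against 0.09 ± 0.06 in Controls (n = 63), with an adjusted p of 0.0103 by permutation, beside 0% of other rows.

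Meg3 in the 6 clones of its promoter deletion had 47.3, 606 and 3830 CPM, against 2349, 3270 and 4827 CPM in 15 Controls, and the log2 fold change of -1.21 (SE 0.55, adjusted p = 0.181) did not pass, beside 5.66% of other rows called. Its allele deviation was 4.19 ± 2.86 (n = 6), against 0.24 ± 0.21 in Controls (n = 15), with an adjusted p of 0.0355 by the exact permutation test that a pseudocount of 1 took to 0.062. The allele call was also lost with libraries under 200000 counts left out, of which clone 1, with 163132 counts, was one. Clones 1 and 4 entered the test with only 2 and 19 and 4 and 38 counts of Meg3. linc1399 in the 7 clones of its deletion had 0, 25.7 and 59.7 CPM, against 21.99, 64.7 and 91.6 CPM in 15 Controls, a log2 fold change of -1.48 (SE 0.47, adjusted p = 0.0878), beside 2.33% of other rows called. 3 of these clones had 0 counts and the other 4 had at least 91.1% of their counts in 1 column.

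With the modified rows themselves left out, 371 tests of a linc row in a modified group could be made in the 30 groups that had Control clones of their own date. Rows entered with a mean count of at least 10, which 26 of the 33 members reached in at least 1 group. linc1328, linc1356, linc1482, linc1560, linc1786, linc1368 and linc1557 never did. Of the 371 tests, 22 were called higher and 24 lower in modified clones at an adjusted p under 0.05, 12.4% in all. Over all rows tested the shares were 6.57% higher and 7.34% lower, 13.9% in all, and over the rows not named linc, Rik or Gm 14.4%. The share of linc calls was thus close to the background. The median log2 fold change was 0.03 in linc rows and -0.01 in all rows, and its absolute median 0.21 and 0.18.

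Of the 46 calls, 39 fell in the 10 promoter deletion groups of 150126, where 28.9% of 135 linc tests and 32.6% of all tests were called. These groups share the same 77 Control clones. The other 20 groups held 2 calls higher and 5 lower. In 141107, 3 of 59 linc tests were called beside 15.6% of all tests, in 150126-S1 2 of 34 beside 3.57%, and in 150801 2 of 60 beside 2.12%. In 150216, 150416 and 151101 edgeR called 0 of 83 linc tests in 7 groups, beside 0.0665%, 4.46% and 0% of all tests. There 7 linc tests had an unadjusted p under 0.05, and DESeq2 called 1.

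**Figure D4:**
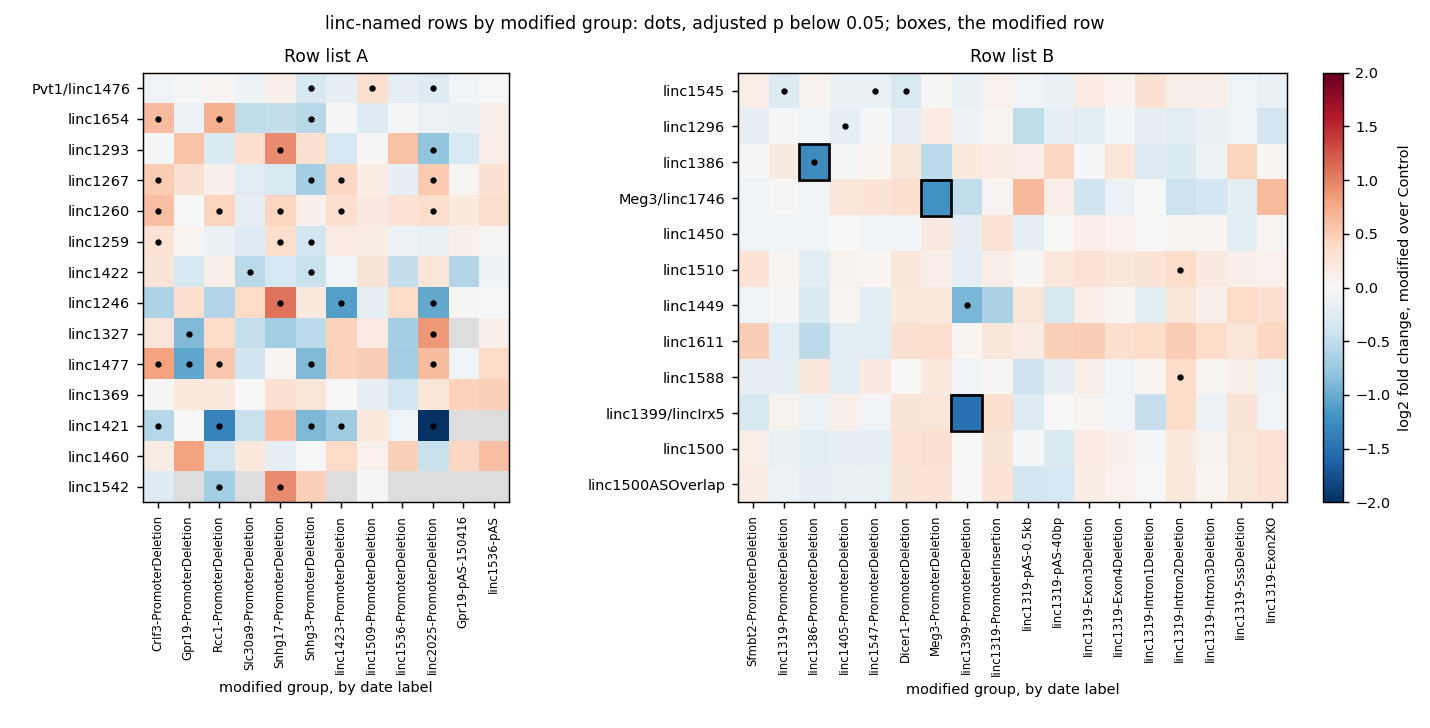
Log2 fold change of each tested linc row, modified over Control clones of the same date, by modified group in row lists A (left) and B (right); dots mark an adjusted p under 0.05, boxes the row that was itself modified, grey a row below the count filter. Most dots stand in the promoter deletion groups of list A, all of date 150126, and the columns there share their Control clones.

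The linc2025 promoter deletion had the most linc calls, 4 higher and 4 lower of 13 tested, beside 51.9% of all rows called in that group. linc1421 fell most: its 8 clones had 0, 9.24 and 16.9 CPM as the lowest, median and highest, against 9.41, 33.8 and 71.1 CPM in Controls. The log2 fold change was -1.98 (SE 0.30, adjusted p = 1.53e-07), and the ranges overlapped between 9.41 and 16.9 CPM. linc1327 had 107, 139 and 170 CPM, against 0, 72.6 and 154 CPM in Controls, a log2 fold change of 0.86 (SE 0.19, adjusted p = 0.000111). linc1246 and linc1293 were lower, by -1.02 and -0.79, and linc1267, linc1477 and linc1260 higher, by 0.52, 0.62 and 0.36. Pvt1 was lower by -0.25. The calls of linc1477, linc1260 and Pvt1 were lost with clones modified on another chromosome as the reference, at adjusted p of 0.12, 0.519 and 0.0846.

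In the Snhg3 deletion, which removes the promoter of a snoRNA host gene, 7 of 14 linc rows were called, all lower, beside 36.7% of all rows. linc1267 had 94.6, 111 and 132 CPM in its 8 clones, against 77.6, 164 and 317 CPM in Controls. Its log2 fold change was -0.67 (SE 0.16, adjusted p = 0.000794). linc1477 and linc1421 fell by 0.88 and 0.89 on the log2 scale, linc1654 by 0.56, linc1422 by 0.44, linc1259 by 0.36 and Pvt1 by 0.31. The calls of linc1654 and linc1422 were lost with library size scaling and with no filter on low counts. Those of linc1421 and linc1422 were lost with clones modified on another chromosome as the reference. All these ranges overlapped with those of Controls.

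The Crlf3 deletion, at the gene of a cytokine receptor-like factor, had 5 linc rows higher and 1 lower of 14, beside 42.7% of all rows called. linc1260 had 191, 227 and 354 CPM in 9 clones, against 30.6, 152 and 236 CPM in Controls, a log2 fold change of 0.59 (SE 0.12, adjusted p = 8.42e-05). linc1477, linc1654, linc1267 and linc1259 were higher by 0.80, 0.62, 0.50 and 0.27, the last of these lost with Control clones of any date as the reference, at an adjusted p of 0.254. linc1421 was lower by -0.57, with an adjusted p of 0.046 that 4 of 6 alternatives took above 0.05. In the Rcc1 deletion, at the gene of a chromatin-bound nucleotide exchange factor, 3 rows were higher and 2 lower of 14, beside 46.5% of all rows. linc1421 had 6.34, 15.3 and 20.1 CPM in 8 clones, against 9.41, 33.8 and 71.1 CPM in Controls, a log2 fold change of -1.34 (SE 0.26, adjusted p = 2.96e-05). These levels rest on few counts, from 2 and 2 in the allele columns of clone 7 to 17 and 28 in those of clone 8. linc1654 was higher there by 0.71, linc1477 by 0.53 and linc1260 by 0.45, and linc1542 lower by -0.68. With clones modified on another chromosome as the reference linc1477 and linc1260 were lost, at adjusted p of 0.38 and 0.211, and with library size scaling linc1542 was.

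Snhg17 is another snoRNA host gene. In its promoter deletion 5 of 14 linc rows were called, all higher, beside 29.4% of all rows. linc1246 had 240, 294, 273, 217 and 223 CPM in the 5 clones, against 31.6, 101 and 352 CPM as the lowest, median and highest Control. Its log2 fold change was 1.09 (SE 0.30, adjusted p = 0.00744). linc1293 had 432, 412, 415, 355 and 318 CPM, against 15.3, 195 and 405 CPM in Controls, a log2 fold change of 0.95 (SE 0.26, adjusted p = 0.00744). Every clone of the deletion stood above the Control median at both rows, and their calls were kept when each clone was left out in turn. linc1542, linc1260 and linc1259 were higher by 0.94, 0.43 and 0.35, and each of these calls was lost when 1 clone was left out: that of linc1542 without clone 3, at an adjusted p of 0.489, that of linc1260 without clone 1, 2 or 3, and that of linc1259 without clone 1, 2, 4 or 5. The alternatives run took linc1260 to an adjusted p of up to 0.566 and linc1259 of up to 0.388.

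The remaining groups of list A had fewer calls. The linc1423 deletion had 4 of 13, beside 28% of all rows, and is described with its neighbours below. The Gpr19 deletion had 2 of 13, beside 17.9%: linc1477 had 12.1, 45.7, 39.7, 0 and 22.1 CPM, against a Control median of 54.03 CPM, and linc1327 had 24.2, 45.7, 33.1, 70.6 and 29.5 CPM, against 72.6 CPM. These levels rest on 0 to 20 counts a clone. Both calls, at adjusted p of 0.041 and 0.0498, were lost under 8 of 11 alternatives, among them leaving out any 1 of the 5 clones. Pvt1 was higher in the linc1509 deletion, beside 12.5% of all rows called. It had 984, 1130 and 1202 CPM in 7 clones, against 360, 836 and 1314 CPM, a log2 fold change of 0.32 (SE 0.09, adjusted p = 0.0168). linc1422 had 65.3, 94.3 and 115 CPM in the 9 clones of the Slc30a9 deletion, against 46.6, 136 and 242 CPM in Controls. It was lower, beside 27.9% of all rows called, by -0.54 (SE 0.18, adjusted p = 0.0197). In the linc1536 deletion edgeR called 0 of 13 linc rows, beside 32.5% of all rows. 4 of them had an unadjusted p under 0.05, and DESeq2 called 0.

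List B held 7 calls in 18 groups, most of them small changes of abundant rows. linc1545 was lower in 3 groups. In the Dicer1 deletion, at the gene of the enzyme that makes microRNAs, it had 6025, 6079, 6366 and 5036 CPM, against 6445, 7063 and 8527 CPM in 15 Controls. The ranges did not overlap, and the log2 fold change was -0.31 (SE 0.08, adjusted p = 0.022), beside 2.73% of all rows called. The call was lost without clone 1, 2 or 4, at adjusted p of 0.111, 0.0504 and 0.112. With Control clones of any date as the reference the change was 0.13, with an adjusted p of 0.501, and with clones modified on another chromosome it was -0.19, with an adjusted p of 0.168. In the linc1319 promoter deletion linc1545 had 4554, 5258, 4860, 5127 and 4600 CPM, against 4451, 5459 and 6972 CPM, a log2 fold change of -0.26 (adjusted p = 0.0308), beside 6.42% of all rows, a call lost without clone 1 or clone 3 and with either of the other references. In the linc1547 deletion it was lower by -0.15 (adjusted p = 0.0475), beside 29.2%. linc1296 had 4507, 5317 and 6341 CPM in the 10 clones of the linc1405 deletion, against 4253, 6191 and 7589 CPM in 63 Controls. It was lower by -0.20 (SE 0.06, adjusted p = 0.00987), beside 30.4%. With Control clones of any date or clones modified on another chromosome as the reference both calls, linc1545 in the linc1547 deletion and linc1296, were lost, at adjusted p of up to 0.993 and 0.446.

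linc1449 (chromosome 11, 96112442 to 96130546) was lower in the linc1399 deletion, a locus on chromosome 8. It had 49.6, 129 and 147 CPM in 7 clones, against 99.1, 201 and 516 CPM in 15 Controls. The log2 fold change was -0.92 (SE 0.23, adjusted p = 0.0247), beside 2.33% of all rows called. The call was kept under the 6 alternatives run, with adjusted p up to 0.0384. None of these left out a clone of the deletion, and the lowest value, 49.6 CPM, was that of 1 clone flagged below. In the linc1319 intron 2 deletion linc1510 had 1059, 1116, 1062 and 945 CPM, against 539, 778 and 998 CPM in 29 Controls, and linc1588 had 877, 804, 602 and 946 CPM, against 452, 586 and 825 CPM. Their log2 fold changes were 0.36 (adjusted p = 0.023) and 0.38 (adjusted p = 0.0339), beside 10.1% of all rows, and 4 of 9 alternatives took each above 0.05, among them leaving out clone 1, 2 or 3 for linc1510 and clone 1, 2 or 4 for linc1588. Meg3, linc1386, linc1399, linc1450, linc1500, linc1500ASOverlap and linc1611 were called in none of the 17 or 18 groups in which each was tested without being the modified row.

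Members near a modified locus were looked at within 1 Mb. linc1423, on chromosome 1, has linc1422 at 5.37 kb, linc1654 at 71.4 kb and linc1421 at 111 kb. In the 9 clones of the linc1423 promoter deletion linc1421 had 12.1, 20.7 and 38.6 CPM, against 9.41, 33.8 and 71.1 CPM in Controls, a log2 fold change of -0.71 (SE 0.25, adjusted p = 0.0228). 8 of 9 clones lay below the Control median. The call was lost with clones modified on another chromosome as the reference, at an adjusted p of 0.611, and linc1421 was also called lower in the Crlf3, Rcc1, Snhg3 and linc2025 deletions, whose loci are not within 1 Mb of it. linc1422, the nearest, had 57.9, 126 and 155 CPM, against 46.6, 136 and 242 CPM, a log2 fold change of -0.05 (adjusted p = 0.852). linc1654 had 511, 785 and 981 CPM, against 22.96, 667 and 1668 CPM, a log2 fold change of 0.02 (adjusted p = 0.945). The allele ratio of none of the 3 was called, with adjusted p of 0.899, 0.987 and 0.837. In the same group linc1246 on chromosome 10 was lower, by -1.10 (SE 0.29, adjusted p = 0.00229), and linc1267 and linc1260 on chromosome 11 higher, by 0.41 and 0.33, calls lost with clones modified on another chromosome as the reference at adjusted p of 0.131 and 0.756.

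linc1327 lies 804 kb from linc1329, the row read for the groups labelled Snhg17 and linc1329. In the Snhg17 deletion it had 61.04, 27.2, 49.3, 44.5 and 45.5 CPM, against 0, 72.6 and 154 CPM in Controls. All 5 clones lay below the Control median, and the log2 fold change of -0.69 (SE 0.29) had an adjusted p of 0.06. linc1328, also in this window, and linc1560, 31.2 kb from Gpr19, had 0 counts in all clones modified there.

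Allele ratios of linc rows were called once in 348 tests in the groups with Control clones of their date, 0.287%, beside 0.378% of all rows tested, by the permutation test with Benjamini-Hochberg adjustment. An unadjusted p under 0.05 was found for 15 of them, 4.31%, against 7.89% of all rows. The call was linc1386 in the linc1405 promoter deletion, beside 0.721% of all rows called in that group. linc1405 lies on chromosome 9. The mean deviation was 1.78 ± 2.79 in 10 modified clones, against 0.09 ± 0.06 in 63 Controls, with an adjusted p of 0.04 by permutation.

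That mean rested on 3 of the 10 clones. Clone 3 had 28 and 6399 counts of linc1386, clone 4 had 35 and 2338, and clone 8 had 985 and 93. Their levels were 3626, 2622 and 2299 CPM, the last 2 of these below every Control. The ratios of -7.81, -6.04 and 3.40 stood far from balance, as did those of the linc1386 deletion clones at 2.92, -4.66, -4.16 and 2.73. The other 7 clones had ratios of -0.75 to -0.23, close to the Controls at -0.65 to -0.06. Clones 3, 4 and 8 were then left out because of these ratios, a choice made after the data were seen. The deviation was 0.13 ± 0.12 (n = 7), against 0.09 ± 0.06 (n = 63). A permutation of the absolute difference gave an unadjusted p of 0.113, which is not on the scale of the adjusted p above. Since the clones were picked by the values compared, this p cannot decide whether the other 7 differ from Controls.

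The same 3 clones were uneven at linc1405, with 1260 and 1, 515 and 14, and 2 and 80 counts. This did not set them apart in their group. Clones 1, 2 and 5 had 857 and 0, 6 and 191, and 2 and 122 counts of linc1405. Clones 6, 9 and 10 had 1698 and 2, 6 and 250, and 630 and 0, and clone 7 had 2 and 3. At Akap13 and Klhl25, on either side of linc1386, clones 3, 4 and 8 were near balance. Clone 3 had 1230 and 1377 counts of Akap13 and 1008 and 1086 of Klhl25. Clone 4 had 457 and 520 and 545 and 580, and clone 8 had 278 and 342 and 188 and 271. Over 24 to 29 other rows of chromosome 7 in these clones, 0 deviated by more than 2 from the Control median. In the 15 clones of the other groups of 141107 linc1386 had ratios of -0.86 to -0.34. The labels of clones 3, 4 and 8 name linc1405 alone, and whether they carry a change at linc1386 was not tested.

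**Figure D5:**
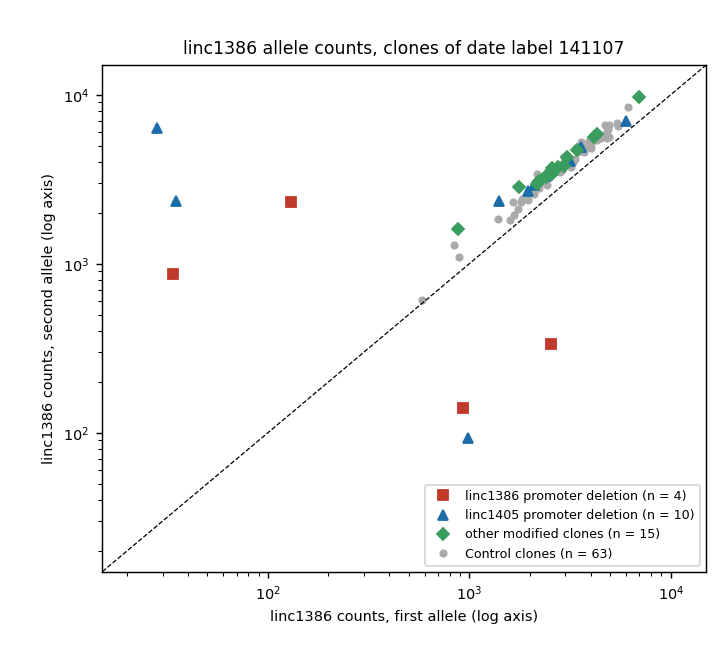
Counts of linc1386 in the first and second allele column (log axes) for every clone of 141107: 4 clones of the linc1386 promoter deletion, 10 of the linc1405 promoter deletion, 15 of other modified groups and 63 Control clones; the dashed line marks equal counts. 3 clones of the linc1405 deletion stand with the linc1386 deletion clones, far from the line, and the other 7 with the Controls.

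The 7 groups without Control clones of their date were set against the Control clones of all dates on their list. Date and modification cannot be told apart there. Of 88 linc tests of total counts, 38 were called, 43.2%, beside 38.3% of all rows. By direction, 32 were higher, 36.4%, beside 17.6% of all rows, and 6 lower, 6.82%, beside 20.7%. In the 4 pAS groups of list A, Gpr19, Slc30a9, linc1329 and linc2025, all 32 calls of 52 tests were higher, 61.5%, where 25.5% of all rows were called higher and 28.4% lower. The single groups stood beside 60.1%, 53.6%, 51.8% and 49.9% of all rows called in either direction. linc1422 had 389, 537 and 684 CPM in the 7 clones of this Gpr19 pAS group, against 46.6, 140 and 331 CPM in 86 Controls. linc1460 had 86.98, 121 and 143 CPM there, against 4.80, 20.2 and 86.3 CPM, and linc1260 277, 380 and 435 CPM, against 30.6, 156 and 261 CPM. None of these ranges overlapped. linc1422, linc1460, linc1260, linc1477, linc1369, linc1293 and Pvt1 were called higher in all 4 of these groups, which share their Controls and their date. The share of all rows called higher in all 4 groups, or with ranges that did not overlap, is not given here. Neither observation can therefore be read as particular to linc rows. In the 3 groups of list B linc1545 was called lower in each. It had 3243, 3492 and 4213 CPM as the lowest, median and highest in linc1319 pAS 2kb, 2984, 3716 and 4010 CPM in linc1319 pAS 4kb, and 3106 and 3493 CPM in the 2 clones of linc1405 pAS, against 3344, 5489 and 8527 CPM in 134 Controls. These stood beside 23.2%, 35.5% and 5.52% of all rows called. linc1296 was also lower in both linc1319 groups, and linc1386 in linc1319 pAS 4kb, where it had 130, 166 and 200 CPM and Controls ranged from 5.72 to 6065 CPM by date. 1 of 84 allele ratio tests of linc rows was called in these groups, beside 5.02% of all rows. The allele ratio of linc1260 was called in linc1329 pAS, with a deviation of 1.36 ± 0.96 (n = 5) against 0.41 ± 0.36 (n = 83) and an adjusted p of 0.0116 by permutation, beside 8.08% of all rows called in that group. Its allele counts were 35 and 4, 42 and 22, 61 and 20, 83 and 10, and 6 and 15.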

How the data were processed

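Poly(A)+ RNA was read in 439 libraries of the 462 samples. The other 23 (ATAC-seq, PRO-seq and ChIP-seq) were not analysed here. The authors deposited whole-number counts for each transcript in a column per allele. Nothing in the values points to a normalization. Coordinates are in mm9, the build named in the submitters' processing notes. The sources used here do not give the aligner, the counting program or the rule for assigning alleles.

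Exon rows were left out and rows with identical counts merged (1 in list A, 5 in list B). CPM are counts of both columns over the library's total on the rows used, times 1000000. Groups came from the labels. Total counts were tested within a list with edgeR 4.0.16 in R 4.3.3 (TMM factors, quasi-likelihood F test, mean count of at least 10), adjusted by Benjamini-Hochberg over all rows of a group, with a threshold of 0.05. SE is the log2 fold change over the root of F. Allele ratios used a pseudocount of 0.5 and clones with at least 20 counts. Mean absolute deviations from the median ratio of both groups together were compared in a two-sided permutation of clones, exact up to 100000 splits and drawn 100000 times beyond, where 2 modified and 5 Control clones could be measured. Fits were checked on simulated data. Alternatives were DESeq2 1.42.0, other scalings, filters, references and left-out clones. Promoters are those of RefSeq in GRCm38.p6. Python 3.11.15 ran the other steps.

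Members named were the 6 highest and the 4 most and 4 least variable rows of a list, the 4 with the largest allele ratio, called rows near a modified locus, the 6 called in most groups, the smallest adjusted p of each group, linc1386 and linc1399. The remaining members were named to account for all. Members, lists and this rule were chosen with earlier results of these data known. No 2 libraries held identical counts.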

Additional observations from a re-analysis of the deposited data

Results flagged for a closer look

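In groups of 4 to 10 clones, 55 member levels were examined for a clone whose gap to the nearest other clone exceeded the 95% critical value of Dixon's test, which chance passes in about 1 of 20 groups. 5 passed. linc1259 had 236 CPM in clone 2 of the Crlf3 deletion, above the other 8 clones. linc1259 had 37.4 CPM in clone 5 of the Snhg3 deletion, below the other 7, a value that rested on 2 and 2 counts in a library of 106850. linc1421 had 33.3 CPM in clone 1 of the Snhg3 deletion, above the other 7. linc1542 had 45.9 CPM in clone 3 of the Snhg17 deletion, above the other 4, and the call of linc1542 in that group was lost without it. linc1449 had 49.6 CPM in clone 3 of the linc1399 deletion, below the other 6, and no fit was run without that clone.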

How the results depend on the processing

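With Control clones of any date as the reference, linc calls numbered 41 higher and 49 lower, in place of 22 and 24, and allele calls 6 in place of 1. Without the groups of 150126, an alternative added after seeing the data, 2 were higher and 5 lower. Leaving out each clone of groups of 2 to 5 clones gave 20 to 22 higher, 22 to 25 lower and 1 allele call throughout. With rows of a mean count of at least 50, the median coefficient of variation in 150216 was 0.200 in place of 0.249. With the linc1500 locus counted once, also added after seeing the data, the median absolute allele ratio of list B was 0.460 in place of 0.893. The other summaries stayed within 1.5 times, or within the spread between clones or dates, under the alternatives run. Of 46 calls, 21 were kept under every alternative run and 25 were lost under at least 1. The alternatives numbered from 4 to 11 a call, since single clones were left out only in groups of 2 to 5 clones. Calls in larger groups thus met fewer of them. Reversed values were linc1545 in the Dicer1 deletion (0.13), Meg3 in its own deletion (0.0789) and linc1296 in the linc1405 deletion (0.15) with Control clones of any date, linc1422 in the linc1423 deletion without libraries under 200000 counts (0.00815) or against clones modified on another chromosome (0.0145), linc1654 against the same clones (-0.00348), and the allele deviation of linc1422 there with a minimum of 50 counts (0.0223). Library size scaling moved the median of all rows by over 0.1 in 1 of 30 groups. No paired analysis was possible because the titles of modified RNA libraries give no replicate number, and the P numbers stand in those of Control clones. Low counts limit what can be said of linc1328, linc1356, linc1368, linc1482, linc1542, linc1557, linc1560 and linc1786, and to a lesser degree of linc1421 and linc1460.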
